A study of Mus musculus with 10 samples.

Results

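The genes described here are 10 genes that mark the contractile state of vascular smooth muscle cells (VSMCs), namely Acta2, Actg2, Myh11, Mylk, Tagln, Cnn1, Smtn, Lmod1, Des and Myocd. They were picked by gene symbol as known markers of this state, at a time when earlier results of these data were known. All 10 were found among the 55453 symbols of the count table, of which 28011 had a count in at least 1 library and 14614 had enough counts to be tested. The libraries came from the aortae of 5 young and 5 old mice, and all of them were male C57BL/6 mice without a named mutation or treatment. Young mice were 14.5 weeks old and old mice 92.5 weeks old. Each library held poly(A) RNA of 1 aorta that had been freed of periadventitial fat, so that VSMCs were measured together with the endothelium, the adventitia and any blood cells left in the vessel. Per library, 19640401 to 22886153 reads were counted on genes. The labels give no origin of the mice beyond strain and age, and the p-values measure the spread between these 10 aortae.

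Contractile VSMCs shorten when myosin, built around the heavy chain Myh11, pulls on filaments of smooth muscle actin. The force is switched on when calcium-bound calmodulin activates the myosin light chain kinase Mylk, while proteins such as calponin (Cnn1), transgelin (Tagln), smoothelin (Smtn) and leiomodin (Lmod1) bind or organise the actin filaments. Myocardin (Myocd) is a coactivator that joins serum response factor (SRF) on DNA elements named CArG boxes and drives most of these genes, and in injured or diseased vessels VSMCs can lower the whole set and take up a synthetic state.

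In the aging aorta 1 of the 10 contractile genes, Smtn, was called, and it was higher in old aortae (log2 fold change 0.29, SE 0.07, edgeR's quasi-likelihood test, Benjamini-Hochberg adjusted p = 0.0217). With edgeR 0 contractile genes were called lower, and with DESeq2 also 0, while Actg2 was the 1 gene with a lower value at an unadjusted p below 0.05. Over all 14614 tested genes 11.5% were called at an adjusted p below 0.05, with 6.48% higher and 4.99% lower in old aortae. Fold changes of the contractile genes lay on both sides of 0, with 5 positive and 5 negative values. Their median log2 fold change was -0.01, and the median over all tested genes was 0.00. The median size of the change regardless of its sign was 0.16 on the log2 scale for the contractile genes and 0.14 for all tested genes. At an unadjusted p below 0.05 the count was 3 of 10 genes (Smtn, Mylk and Actg2), and 26.7% of all tested genes passed the same limit. Levels below are normalised read counts, which are counts divided by the size factor of the library, and they are listed from replicate 1 to replicate 5.

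**Figure D1:**
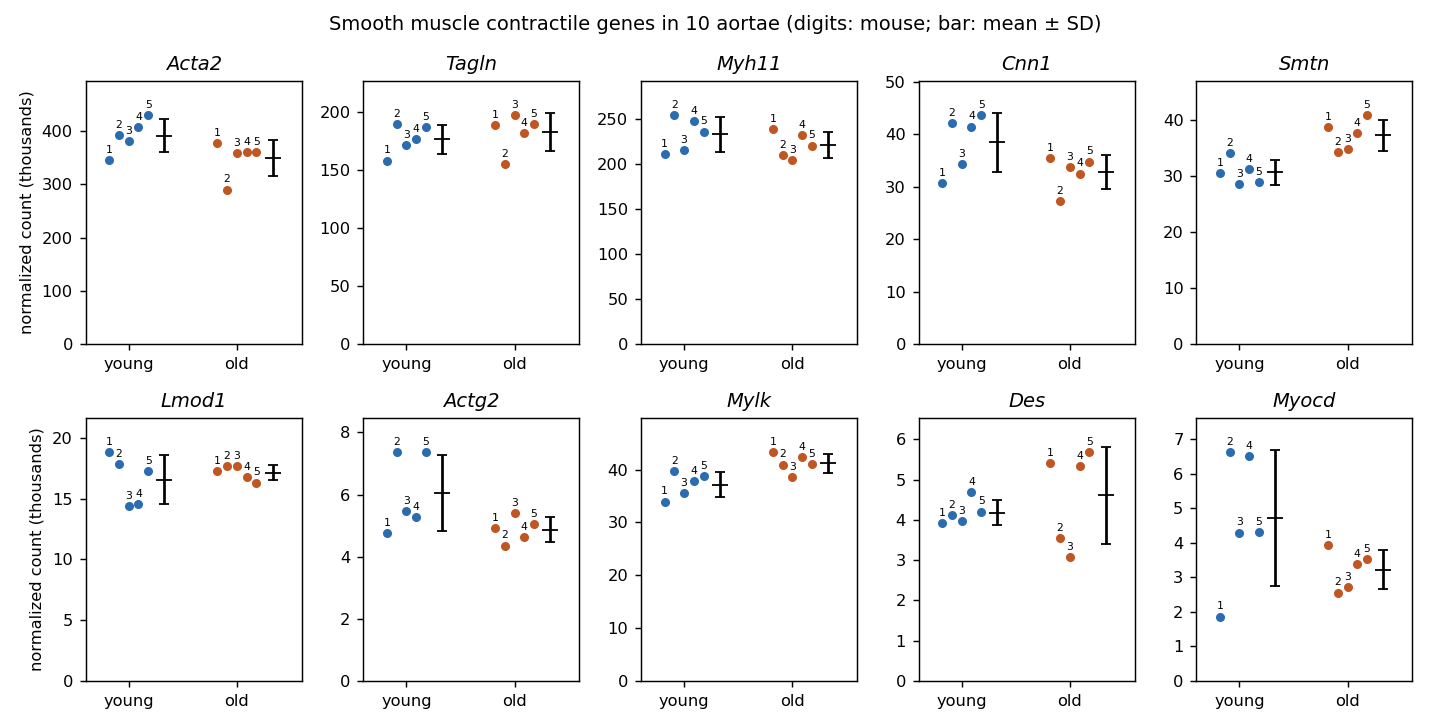
Normalised read counts (vertical axes as labelled, each starting at 0) of the 10 contractile genes in 5 young (blue) and 5 old (orange) aortae, with the replicate number above each point and the mean ± SD beside each group. Smtn is the gene whose groups do not overlap, with a highest young value of 34137 and a lowest old value of 34230, and young replicate 1 is far below the other aortae for Myocd at 1864.

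Acta2, the smooth muscle α-actin of the thin filament, lies on chromosome 19 (GRCm38, 34241090 to 34255590, minus strand). It had 345145, 391411, 381207, 406248 and 428922 normalised counts in the young aortae. In old aortae Acta2 reached 377025, 289767, 358035, 359828 and 359427 counts. The groups overlapped, although 4 of the 5 young aortae were above every old one. Means were 390587 ± 31099 for young mice and 348817 ± 33917 for old mice (SD, n = 5 each). The difference of -10.2% had a 95% interval of -21.6% to 2.85% (log2 fold change -0.16, SE 0.09, edgeR adjusted p = 0.303). Actg2, the γ-actin typical of visceral smooth muscle (chromosome 6, 83512905 to 83536265, minus strand), had a larger difference. Its young values were 4767, 7369, 5465, 5278 and 7366 counts, and its old values were 4911, 4353, 5410, 4626 and 5055 counts. Every old aorta was below the young mean of 6049 ± 1230 (SD, n = 5), but young replicates 1 and 4 lay within the old range. The old mean of 4871 ± 404 was 19.0% below the young one, with an interval of -32.5% to -2.86% (log2 fold change -0.30, SE 0.12, edgeR adjusted p = 0.128). When young replicate 1 was left out, Actg2 was called lower (log2 fold change -0.38, edgeR adjusted p = 0.0335), in a fit that called 16.1% of all tested genes.

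The 3 short stretches of the Acta2 promoter below show the elements through which SRF, myocardin and TEAD factors are known to act on smooth muscle genes. They were searched in the 250 bases before and 50 bases after the start in the RefSeq promoter set of GRCm38.p6, which held 6 of the 10 genes (Acta2, Cnn1, Des, Lmod1, Mylk and Smtn). Capitals mark the matched element, each sequence is read 5′ to 3′ on the strand of the gene, and positions count from the start.
Acta2, CArG-like element at -84 to -75, chr19:34255438-34255467, minus strand: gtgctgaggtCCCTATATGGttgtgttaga
Acta2, CArG-like element at -34 to -25, chr19:34255388-34255417, minus strand: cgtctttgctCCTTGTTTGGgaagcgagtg
Acta2, MCAT element at -146 to -141, chr19:34255502-34255531, minus strand: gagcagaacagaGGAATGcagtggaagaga
Both CArG-like elements of Acta2 carry 1 base in the centre that is not A or T. The strict CArG box was in 0 of the 6 promoters and in 1.63% of all 32851 promoters. With 1 changed base allowed, Acta2 was the only match among the 6, and 9.98% of all promoters matched.

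The MCAT element, CATTCC read on either strand, was in 4 of the 6 promoters (Acta2, Lmod1, Mylk and Smtn) and in 14.7% of all promoters. Those of Smtn, Mylk and Lmod1 are shown because these genes, unlike Acta2, had higher means in old aortae. Of these only Smtn was called. Among the genes without an MCAT element in the window, Des had a higher and Cnn1 a lower mean. Whether the element goes with the direction of the difference was not tested. For Smtn and Mylk the RefSeq start lies inside the gene as annotated by GENCODE, at one of several starts. For Acta2 it also lies inside the gene, as do the Acta2 stretches shown above. No MCAT site overlapped a CArG-like match.
Smtn, MCAT element at -222 to -217, chr11:3539497-3539526, minus strand: cggtttgtggcaCATTCCggactttggctt
Mylk, MCAT element at -158 to -153, chr16:34784780-34784809, plus strand: tgcagttcagaaCATTCCctggtacgtgca
Lmod1, MCAT element at -130 to -125, chr1:135324671-135324700, plus strand: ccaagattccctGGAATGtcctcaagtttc
These matches describe letters in a window and are not evidence of binding in the aorta.

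Myh11, the smooth muscle myosin heavy chain and the marker most restricted to this lineage, lies on chromosome 16 (14194535 to 14291372, minus strand). Young aortae held 210913, 253710, 215021, 247254 and 235754 normalised counts of Myh11, and old aortae held 238641, 209720, 204480, 231675 and 220112. The groups overlapped almost fully. Means were 232530 ± 19037 (SD, n = 5) and 220926 ± 14371 (SD, n = 5), a difference of -4.46% with an interval of -15.3% to 7.79% (log2 fold change -0.07, SE 0.08, edgeR adjusted p = 0.657). Mylk, the kinase that phosphorylates the regulatory light chain of myosin (chromosome 16, 34745210 to 35002420, plus strand), had the opposite sign. It had 33930, 39688, 35541, 37886 and 38734 counts in young aortae and 43314, 40938, 38554, 42378 and 41023 counts in old aortae. All old values but that of replicate 3 were above every young value. The old mean of 41241 ± 1799 (SD, n = 5) exceeded the young mean of 37156 ± 2369 (SD, n = 5) by 11.6%, with an interval of 1.19% to 23.1% (log2 fold change 0.16, SE 0.07, edgeR adjusted p = 0.140). With DESeq2 the same gene was called higher (log2 fold change 0.15, adjusted p = 0.0471), in a fit that called 15.8% of all tested genes.

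Smtn encodes smoothelin, an actin-binding protein of fully differentiated contractile smooth muscle, and lies on chromosome 11 (3517523 to 3540612, minus strand). The 5 young aortae had 30546, 34137, 28545, 31305 and 28934 normalised counts of Smtn. The 5 old aortae had 38692, 34230, 34850, 37740 and 40844 counts. All old values were above all young values, and the smallest gap was that between old replicate 2 and young replicate 2. Among all tested genes, 9.92% had groups that did not overlap, 5.37% with higher and 4.55% with lower values in old aortae. Smtn rose from a mean of 30693 ± 2234 (SD, n = 5) to 37271 ± 2744 (SD, n = 5), an increase of 22.1% with an interval of 9.49% to 36.1%. The fold change stayed between 0.25 and 0.32 on the log2 scale in 20 alternative fits. Of the fits that leave out 1 aorta, 3 lost the call, those without young replicate 3 (edgeR adjusted p = 0.0551, 10.2% of all tested genes called), without young replicate 5 (adjusted p = 0.0578, 8.7% called) and without old replicate 5 (adjusted p = 0.0610, 8.59% called). Gm11946, a gene on the opposite strand, overlaps the exons of Smtn together with Gm11947 over 16.3% of their length, and Gm11946 had a mean of 91.0 counts in young and 74.6 counts in old aortae.

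Tagln, which encodes transgelin (SM22α) and is among the earliest markers of the lineage, lies on chromosome 9 (45929619 to 45936058, minus strand). It had 158386, 190115, 171928, 176670 and 186980 normalised counts in young aortae and 188941, 155210, 197438, 182433 and 189936 counts in old aortae. Both groups covered nearly the same range. The means were 176816 ± 12686 (SD, n = 5) and 182792 ± 16311 (SD, n = 5), and the difference of 3.95% had an interval of -8.29% to 17.8% (log2 fold change 0.06, SE 0.08, edgeR adjusted p = 0.726). Of the exonic bases of Tagln, 67.9% are overlapped by Gm48529 and Pcsk7 on the opposite strand. The strand setting of the counting is not given in the sources used here, so that reads of Tagln and its antisense partners may not have been told apart. Counts assigned to Gm48529 amounted to 0.169% to 1.06% of those of Tagln in the 10 libraries.

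Cnn1, calponin, an inhibitor of the actomyosin ATPase, lies on chromosome 9 (22099216 to 22109630, plus strand). Its young values of 30708, 42133, 34354, 41431 and 43579 normalised counts were spread widely. The old values of Cnn1 were 35509, 27316, 33738, 32507 and 34784 counts, all below the highest 3 young values. Means of Cnn1 were 38441 ± 5601 for young and 32771 ± 3252 for old mice (SD, n = 5 each), a difference of -14.3% with an interval of -26.7% to 0.204% (log2 fold change -0.22, SE 0.10, edgeR adjusted p = 0.193). Without young replicate 1 the gene was called lower (log2 fold change -0.29, edgeR adjusted p = 0.0447), in a fit that called 16.1% of all tested genes. Lmod1, leiomodin, which nucleates actin filaments in smooth muscle (chromosome 1, 135324807 to 135368065, plus strand), did not share this pattern. It had 18825, 17814, 14347, 14560 and 17285 counts in young and 17274, 17673, 17681, 16765 and 16316 counts in old aortae. The old values all lay within the young range. Means of Lmod1 were 16566 ± 2008 (SD, n = 5) and 17142 ± 595 (SD, n = 5), a difference of 4.08% with an interval of -7.69% to 17.3% (log2 fold change 0.06, SE 0.08, edgeR adjusted p = 0.701).

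Des, desmin, forms the intermediate filaments of muscle cells and lies on chromosome 1 (75360329 to 75368579, plus strand). In young aortae Des had 3922, 4117, 3977, 4683 and 4204 normalised counts. In the old group the values were 5414, 3553, 3081, 5328 and 5684. The old aortae lay on both sides of the young ones, with replicates 1, 4 and 5 above every young value and replicates 2 and 3 below every young value. The means of 4181 ± 302 (SD, n = 5) and 4612 ± 1201 (SD, n = 5) differed by 10.9%, with an interval of -12.9% to 41.1% (log2 fold change 0.15, SE 0.16, edgeR adjusted p = 0.603). The homeobox gene Hoxc6, a marker of position along the body axis, was the gene with the profile most like that of Des (Pearson's r = 0.97 over 10 libraries), and its old values of 292, 193, 144, 274 and 284 counts were high and low in the same aortae.

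Myocd, the coactivator of the set, lies on chromosome 11 (65176561 to 65269989, minus strand). The young aortae had 1864, 6629, 4295, 6506 and 4305 normalised counts of Myocd, a 3.56-fold range. Old aortae had 3930, 2559, 2720, 3389 and 3536 counts. All 5 old aortae were below 4 of the young ones and above young replicate 1. The young mean was 4720 ± 1959 and the old mean 3227 ± 575 (SD, n = 5 each), a difference of -31.3% with a wide interval of -57.1% to 10.1% (log2 fold change -0.54, SE 0.30, edgeR adjusted p = 0.294). Without young replicate 1, Myocd was called lower in old aortae (log2 fold change -0.75, SE 0.18, edgeR adjusted p = 0.0204). That fit called 16.1% of all tested genes. Myocd was also called without both young replicate 1 and old replicate 2 (log2 fold change -0.67, edgeR adjusted p = 0.0379), in a fit that called 14.8% of all tested genes.

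**Figure D2:**
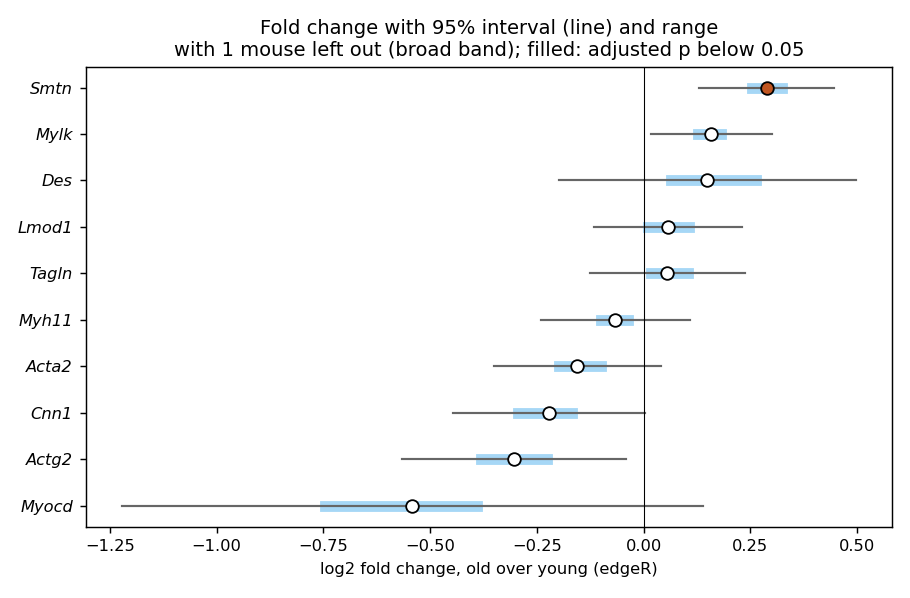
Log2 fold change of each contractile gene (horizontal axis, old over young, edgeR), with its 95% interval as a line and the range over the fits that leave out 1 aorta as a broad band. Smtn at 0.29 is the filled point, with an adjusted p below 0.05, and the intervals of Mylk above 0 and Actg2 below 0 also leave out 0 without an adjustment for the number of genes.

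Without young replicate 1, Actg2, Cnn1 and Myocd were called lower, in a fit that called 16.1% of all tested genes. This aorta had the lowest value of the young group in 8 of the 10 contractile genes (all but Lmod1 and Smtn). It was lowest in 28.2% of all tested genes. It was highest in Lmod1. Among the young aortae it also had the highest summed normalised counts of 5 adipocyte markers (8043, against 2109 to 4139 in the other young aortae) and of 4 Schwann cell markers (1139, against 384 to 554). The summed macrophage, T cell, B cell and erythrocyte markers were highest in the same library. Their part in the low contractile values was not tested, and in whole tissue fewer cells of a type and less RNA per cell cannot be told apart. In the old group replicate 2 was lowest in 6 of the 10 genes (26.2% of all tested genes). That library had 11% of its counts on mitochondrial genes, while the other old aortae had at most 6.51%. Within the old group it also had the highest summed adipocyte (3178, next old aorta 1915), endothelial (22305, next 15403) and erythrocyte markers (4397, next 2942). Its fibroblast and pericyte sums were the lowest. The part of the mitochondrial share and of these other cells in its values was not tested. Young replicate 2 was highest in 6 genes and old replicate 1 in 5. After each value was set against the mean of its own age group, the median over the 10 genes was -0.15 on the log2 scale for young replicate 1 and -0.19 for old replicate 2, and between -0.09 and 0.12 for the other 8 aortae.

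**Figure D3:**
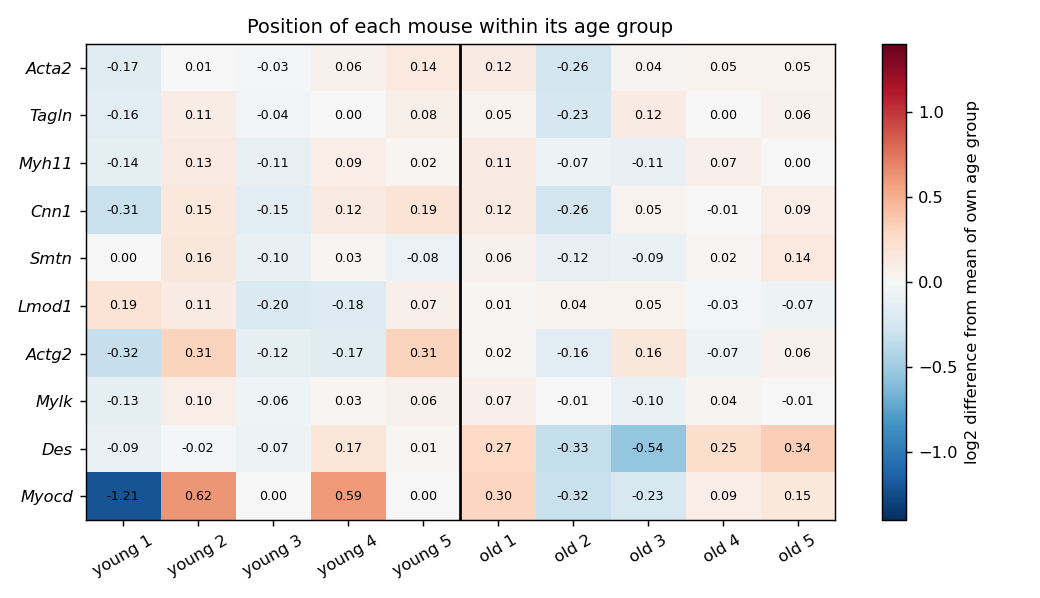
Log2 difference of each aorta from the mean of its own age group (colour and printed value) for the 10 contractile genes (rows) in the 5 young and 5 old aortae (columns). The column of young replicate 1 is blue in every row but Lmod1 and Smtn, with -1.21 for Myocd, and the row of Des splits the old aortae from -0.54 to 0.34.

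Within the age groups the level of Myocd was compared with those of the other 9 genes over the 10 aortae, after the group means were removed. The relation was closest for Myh11, with Pearson's r = 0.82 (permutation p = 3e-04, adjusted over 9 relations 0.0027) and Spearman's rho = 0.88 (permutation p = 0.00172, adjusted 0.0155). Without the 2 aortae farthest from the median of Myocd, young replicates 1 and 2, r for Myh11 was 0.79. For Mylk r was 0.81 (permutation p = 0.00272, adjusted 0.0115) with rho = 0.70 (permutation p = 0.0308, adjusted 0.0793), and r was 0.53 without the 2 farthest aortae. For Cnn1 r was 0.79 (permutation p = 0.00382, adjusted 0.0115) with rho = 0.67 (permutation p = 0.0396, adjusted 0.0793), and 0.58 without the same aortae. The relations of Mylk and Cnn1 thus rested partly on those 2 aortae, and their rank correlations did not pass the adjustment. Smtn had r = 0.48 (permutation p = 0.162, adjusted 0.182) and rho = 0.79 (permutation p = 0.00931, adjusted 0.0419). For the remaining 5 genes neither coefficient passed the adjustment, and over all 10 aortae Lmod1 was the only gene with a negative value (r = -0.53, rho = -0.37). Without the 2 farthest aortae r was 0.69 for Smtn, 0.75 for Des, 0.56 for Acta2, 0.30 for Tagln, -0.27 for Actg2 and -0.59 for Lmod1. These correlations were added after values were seen. All values of a library share its RNA and its size factor, which can move genes together.

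Compared per length, as counts scaled to library size (CPM) per kb of exon, Acta2 was the most abundant contractile gene. Among 27662 genes it had rank 3 in every young aorta and a median rank of 3 in old aortae, and on average only mt-Co1 and mt-Cytb of the mitochondrial genome were above it. Young aortae had a level of 8204 ± 644 CPM per kb and old aortae one of 7367 ± 705 (SD, n = 5 each), and its lowest rank, 6, was in old replicate 2. With the longest transcript in place of all exons, the median rank over the 10 libraries was 12 for Acta2, 15 for Tagln and 27.5 for Myh11. Per kb of exon, Tagln followed Acta2 at 4103 and 4265, Myh11 at 1412 and 1349, Cnn1 at 648 and 556, and Smtn at 323 and 395 CPM per kb in young and old aortae. Up to this point each gene was above the next in all 10 libraries. Lmod1 (194 and 201), Actg2 (179 and 145) and Mylk (152 and 170) lay close together, with Lmod1 above Actg2 in 8 of 10 libraries. Actg2 was above Mylk in 5 of 5 young aortae but in 1 of 5 old aortae, and this change of order was not tested. It depends on the length used: with the longest transcript in place of all exons, Actg2 was above Mylk in 2 of 5 young and 0 of 5 old aortae, and Mylk was above Lmod1 in 9 of 10 libraries. Des (51.4 and 57.0) and Myocd (33.9 and 23.3) were the least abundant and kept their order in every library. Both were still above the median level of 4.43 over all tested genes.

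The median rank of Smtn among all genes went from 85 in young to 58 in old aortae, and the ranges of 74 to 96 and 55 to 66 did not overlap. Mylk went from a median rank of 220 to 184 and Des from 775 to 548, with overlapping ranges. In the other direction Myocd went from 1300 to 1672, and in young aortae alone its rank ran from 836 to 3079. Actg2 went from 206 to 242. The ranks of Acta2 (3 and 3), Tagln (6 and 7), Myh11 (15 and 17), Cnn1 (35 and 39) and Lmod1 (167 and 154) differed little. Together the 10 genes took 4.28% ± 0.211 of all counts in young aortae and 4.18% ± 0.292 in old ones (SD, n = 5 each). Acta2, Myh11 and Tagln made up most of this, with 3.65% in young and 3.52% in old aortae.

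**Figure D4:**
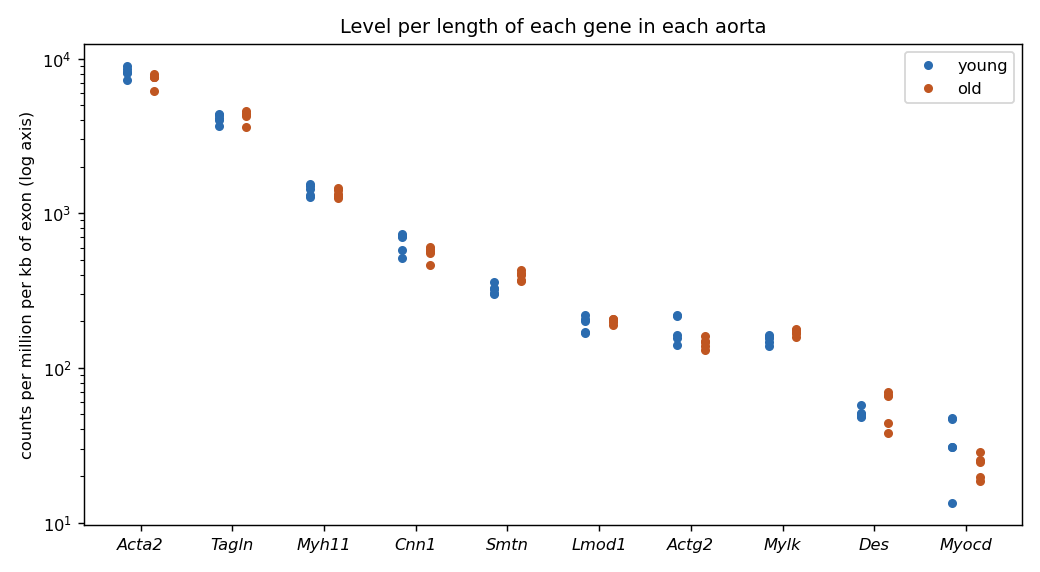
Level of each contractile gene in CPM per kb of exon (log axis) in the 5 young (blue) and 5 old (orange) aortae, ordered by abundance. The order from Acta2 (8204 and 7367) to Smtn (323 and 395) was the same in every library, and Lmod1, Actg2 and Mylk are interleaved.

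The spread between mice differed widely among the contractile genes. Myocd had the largest coefficient of variation (CV, the SD over the mean) of the set in young aortae, 41.5%, and 17.8% in old aortae. Its young value was above that of 93.9% of all tested genes. It was also above that of 98.7% of the 860 genes at least as abundant in counts as the least abundant member. Actg2 had 20.3% in young and 8.30% in old aortae. The CV was also larger in young aortae for Lmod1, at 12.1% and 3.47%, and for Cnn1, at 14.6% and 9.92%. Des had the reverse, 7.24% in young and 26.0% in old aortae, and the old value was above that of 83.7% of tested genes and 96.0% of the same 860 genes. Smtn varied alike in both groups, at 7.28% and 7.36%. For the 3 most abundant genes, CVs lay between 6.50% and 9.72% in either group. Single aortae carried several of these values. Without young replicate 1 the young CV of Myocd was 24.1%, that of Acta2 5.15% in place of 7.96% and that of Tagln 4.71% in place of 7.17%. Without old replicate 2 the old CV was 2.47% for Acta2 in place of 9.72%, 3.24% for Tagln in place of 8.92% and 3.83% for Cnn1. The young CV was 4.39% for Smtn without young replicate 2 and 3.18% for Des without young replicate 4, and the old CV of Mylk was 2.73% without old replicate 3 in place of 4.36%. The median over the 10 genes was 8.07% in young and 8.61% in old aortae, while the medians over the 860 genes at least as abundant in counts as the least abundant member were 7.39% and 8.15%. The CV was smaller in old aortae for 6 of the 10 genes and for 49.4% of all tested genes. Spread was described without a test.

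Related genes were read from 7 lists around the contractile apparatus, with 109 of 112 genes tested, of which 10 were called higher and 13 lower (21.1%). Over all tested genes 11.5% were called, 6.48% higher and 4.99% lower, and the counts of each list stand against these shares. Among 23 tested partners of the thin filament, such as tropomyosins and filamin, 1 was called lower and none higher, with a median log2 fold change of 0.00. The called gene was Smtnl2, a smoothelin-like gene of low level, which fell from 89.1 ± 13.1 to 43.4 ± 11.2 normalised counts (log2 fold change -1.03, edgeR adjusted p = 0.00508). The most abundant partners per kb of exon were Flna (0.04), Csrp1 (0.06) and Tpm2 (0.00), given as log2 fold changes, and none of them was called. The 10 myosin chains and kinase relatives had a median of -0.08, with 3 called lower and 1 higher. Myh10 fell from 23723 ± 1168 to 18651 ± 2021 counts (log2 fold change -0.34, edgeR adjusted p = 0.0137). This gene encodes the nonmuscle myosin heavy chain known as the embryonic form of smooth muscle. Myl12a (-0.44) and the skeletal type kinase Mylk2 (-0.44) were also called lower, and Myh14, at 10.2 counts in young aortae, was called higher (1.32). The light chains Myl9 (log2 fold change -0.05, edgeR adjusted p = 0.705) and Myl6 (-0.18, adjusted p = 0.115), which partner with Myh11, and the kinase Mylk4 (-0.05) did not pass.

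The 4 other actins had a median log2 fold change of -0.61, and 1 of them was called. The cardiac actin Actc1 fell from 137 ± 87.0 to 33.8 ± 18.4 counts (log2 fold change -2.02, edgeR adjusted p = 0.0165). Cytoplasmic Actb had -0.20 (edgeR adjusted p = 0.104), Actg1 -0.15 and the skeletal actin Acta1 -1.02 on the log2 scale, none of them called. In young replicate 2, Acta1 had 207 counts and the cardiac myosin gene Myh6 had 161, and that library had a summed level of 9 skeletal muscle markers of 1241 counts, whereas the other 9 aortae had at most 311. The 14 genes of intermediate filaments and membrane attachment had a median of -0.05, with 1 called higher and 1 lower. Cav1, the caveolar coat protein, fell from 19366 ± 674 to 13856 ± 943 counts (log2 fold change -0.47, edgeR adjusted p = 0.000477). Cav1 is also abundant in endothelial cells, whose 7 markers had a median log2 fold change of -0.60, and their part in this difference was not tested. Nes, which encodes the intermediate filament protein nestin, rose (0.51, edgeR adjusted p = 0.0172). Vim (0.05), Cavin1 (-0.06) and Itga8 (-0.22, adjusted p = 0.112) did not pass.

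Of 21 genes in the SRF and myocardin network, Mef2c, a transcription factor of muscle genes, was the only one called (log2 fold change -0.23, edgeR adjusted p = 0.0472). The median log2 fold change of this list was -0.01. Srf itself went from 2065 ± 115 to 1846 ± 49.5 counts, and its groups did not overlap (log2 fold change -0.15, edgeR adjusted p = 0.0749). Among all tested genes, 4.55% had groups that did not overlap with lower values in old aortae. Myl6 (lower) and Cald1 (higher), genes of the other lists without a call, also had groups that did not overlap. The most abundant members of the list per kb of exon were the LIM protein gene Fhl1 (-0.22, adjusted p = 0.141) and Mef2d (0.08), which were not called. A list of 20 other genes enriched in smooth muscle had 5 called lower and 1 higher, with a median of -0.14. Npnt, an integrin ligand of the matrix, fell from 33336 ± 4060 to 21544 ± 1718 counts (log2 fold change -0.62, edgeR adjusted p = 0.00089). The amine oxidase gene Aoc3 (-0.44, adjusted p = 0.00127) and the small heat shock protein gene Hspb6 (-0.41, adjusted p = 0.00499) fell as well, while Sncg, γ-synuclein, rose from 867 ± 75.5 to 1956 ± 248 counts (1.18, edgeR adjusted p = 6.42e-06). Mustn1 (0.22), Jph2 (0.03) and the inhibitor of myosin phosphatase Ppp1r14a (-0.10) did not pass.

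The list of 17 genes of the synthetic or modulated state had 7 called higher and 1 lower, with a median log2 fold change of 0.64. Whole aortae were measured, so that these differences cannot be assigned to VSMCs, and the part of other cells was not tested. Members that rose were Ibsp, a bone matrix protein gene, from 16.3 ± 1.98 to 141 ± 31.9 counts (log2 fold change 3.12, edgeR adjusted p = 1.87e-06), and Tnfrsf11b, osteoprotegerin (1.44, adjusted p = 0.0014). Sox9, the regulator of cartilage genes (1.00, adjusted p = 0.00259), and Mgp, the inhibitor of calcification (0.64, adjusted p = 0.00486), rose too. Runx2 (0.96), Acan (0.76) and Col8a1 (0.71) were the other members called higher, and Sdc1, a cell surface proteoglycan gene, was called lower (-0.42, edgeR adjusted p = 0.0209). The most abundant members per kb of exon without a call were Fn1 (0.43, edgeR adjusted p = 0.107), Ly6a (0.13) and S100a4 (0.18). The lists were compiled with earlier results of these data known, so that their counts describe the data and are not independent evidence of a direction.

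**Figure D5:**
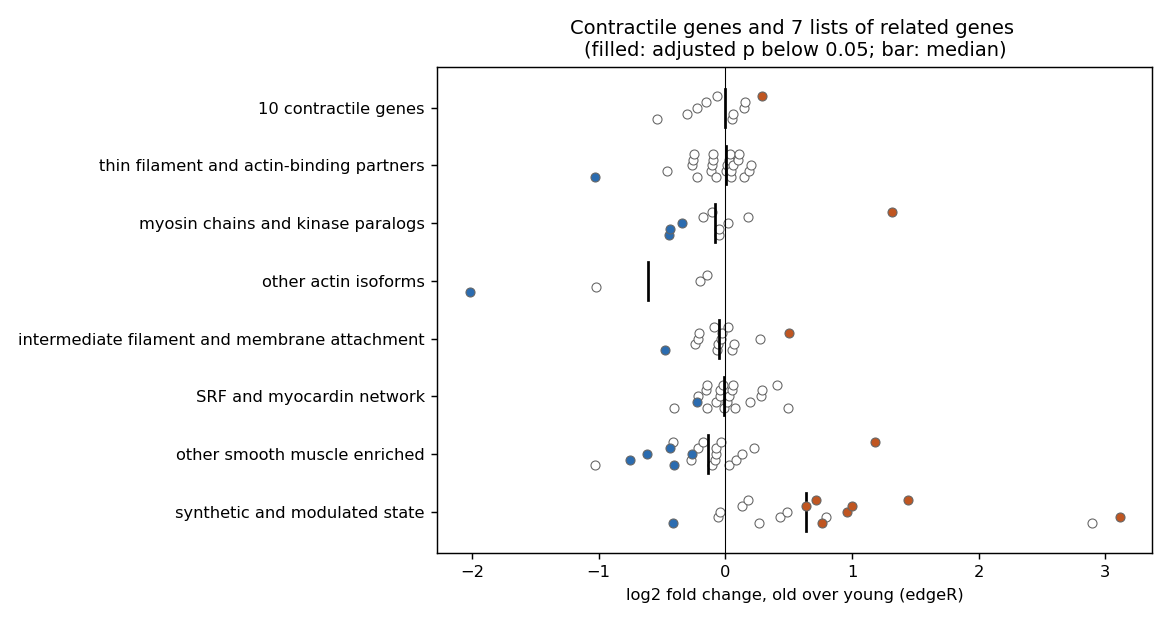
Log2 fold change (horizontal axis, old over young, edgeR) of each tested gene in the 10 contractile genes and in 7 lists of related genes (rows), with called genes filled and the median as a bar. The contractile genes have a median of -0.01 and 1 filled point, and the synthetic and modulated state has a median of 0.64 with 7 filled points above 0.

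For each contractile gene, the gene outside the set with the most similar profile over the 10 libraries was found from Pearson's r of log2 CPM. For Acta2 it was the tropomyosin gene Tpm1 (0.96), for Myh11 Mars2 (0.97) and for Mylk Bahd1 (0.94). It was Dynll1 for Cnn1 (0.97), Vdac1 for Tagln (0.94), Arhgef40 for Lmod1 (0.92) and Ell2 for Myocd (0.99). Smtn was closest to Acap3 (0.95), which was itself called higher in old aortae (log2 fold change 0.32, edgeR adjusted p = 0.00403). No 2 contractile genes had the same nearest gene. Such values are the highest of many and are given as descriptions.

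Markers of other cells of the vessel wall were read beside these results, since their share of the tissue bears on every level. Of 7 endothelial markers none was called, but with TMM scaling all 7 had negative log2 fold changes (-1.08 to -0.04), with a median of -0.60. The lowest adjusted p among them were 0.0538 for Emcn and 0.0554 for Pecam1 (edgeR), and their summed level was 18799 to 32092 counts in young and 9559 to 22305 in old aortae. Among 7 fibroblast markers 1 was called higher and 2 lower, and of 5 pericyte markers none was called. Macrophage markers were called higher in 3 of 6 genes, and so were both tested T cell markers of 5. Old replicate 3 had the highest summed macrophage (18141, next old aorta 10995), T cell (145, next 87.2) and B cell markers (321, next 73.0) of the old group. In the same group it had the lowest values of Myh11, Des and Mylk and the highest values of Tagln, Lmod1 and Actg2. Of all tested genes, 26.0% were lowest and 25.4% highest in old replicate 3 within the old group. No call was made for 3 tested B cell, 5 tested skeletal muscle, 5 adipocyte, 4 Schwann cell and 4 erythrocyte markers. Among the adipocyte markers only Ucp1 had a positive log2 fold change (0.06), and the others lay between -1.10 (Plin1) and -0.83 (Lep). The groups of Plin1 did not overlap, with a lowest young value of 599 and a highest old value of 597 counts (edgeR adjusted p = 0.0991). Summed adipocyte levels overlapped, at 2109 to 8043 counts in young and 1224 to 3178 in old aortae. Of 3 tested cardiac markers 1 (Tnnt2) was higher and 1 (Actc1) lower. The part of these other cells in the levels of the contractile and related genes was not tested.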

How the data were processed

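RNA was sequenced from 10 mouse aortae with a stranded mRNA kit (per the labels). The authors trimmed reads with fastp 0.20.0 and removed those under 35 bases, aligned them to GRCm38 with STAR 2.7.0f and counted them per gene with featureCounts (Subread 1.6.4). The deposited values are these raw read counts without normalization. Positions, exonic lengths and overlaps came from GENCODE M21 (the authors used M22), and promoters from RefSeq.

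The age groups were compared with edgeR 4.0.16 (TMM, default low-count filter, robust quasi-likelihood F test, R 4.3.3) over all 14614 tested genes, with Benjamini-Hochberg adjustment and calls at an adjusted p below 0.05. Normalised counts used DESeq2 1.42.0 size factors, and CPM per kb of exon used TMM. Between libraries of a group, the variance of counts was 8.06 to 58.8 times that of counting error (chi-square over degrees of freedom, 20 pairs), so that no library was a duplicate. Scripts were tested on simulated data. The contractile genes and all lists were chosen with earlier results of these data known. Named genes are all 10, up to 4 called and 3 abundant uncalled genes per list, and the nearest profile of each contractile gene (that of Actg2 is not reported here). Genes of marker lists, Srf, Myh6 and the antisense genes, and the correlations with Myocd (100000 resamples), were added after values were seen. Alternatives were DESeq2, limma-voom (limma 3.58.1), other scalings and filters, a threshold of 0.01, the replicate number as a block, and omission of aortae. Protein sequences were not used here.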

Additional observations from a re-analysis of the deposited data

Results flagged for a closer look

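The 10 contractile genes were examined in both age groups, 20 groups of 5 aortae in all, for an aorta that stood apart from the rest of its group by Dixon's ratio. Acta2 in old replicate 2 was the only value past the 95% limit of 0.71. It had 289767 normalised counts, while the nearest old aorta had 358035 and the highest 377025 (ratio 0.782). By chance about 1 in 20 groups passes this limit, and 20 groups were examined. Old replicate 2 also had the lowest old value of Cnn1, Tagln, Myocd, Smtn and Actg2 and the highest mitochondrial share, and the part of that share was not tested. Its summed adipocyte, endothelial and erythrocyte markers were also the highest of the old group, and their part was not tested.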

How the results depend on the processing

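The sign of the fold change held for all 10 contractile genes in all 220 combinations of a gene and an alternative, and in 210 of them the gene kept its side of the limit. Combinations at the threshold of 0.01 reuse the main fit, so that their sign could not differ. The count of contractile genes called was 1, and it was 2 with DESeq2 (Smtn and Mylk), 0 at a threshold of 0.01, 0 to 4 when 1 aorta was left out, and 2 without both young replicate 1 and old replicate 2, an alternative added after the data were seen. Of 109 related genes 23 were called, against 39 with DESeq2, 37 with limma-voom and sample quality weights, and 13 at a threshold of 0.01. Calls over all tested genes moved with the same settings, from 11.5% to 15.8% with DESeq2, 17.8% with the weights, 4.5% at 0.01, 7.67% to 16.1% when 1 aorta was left out, and 14.8% without both. Without mitochondrial genes in the total, the 10 genes took 4.52% of counts in young and 4.48% in old aortae. Ranks per length depended on the length used: with the longest transcript in place of all exons, Acta2 had a median rank of 12, Tagln of 15, Mylk of 205, Lmod1 of 237.5 and Actg2 of 268. Replicate numbers did not pair the aortae, since deviations of same-numbered aortae had correlations of -0.30, -0.07, 0.10, -0.05 and 0.13 and 2 of 5 correlated best with their own number. With the replicate block 0 contractile genes were called (Smtn, edgeR adjusted p = 0.0819) among 1261 genes in all. The spread between 5 mice, and not counting error, set the width of the intervals, most of all for Myocd.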
